A study of Mus musculus with 18 samples.

Results

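The livers of 6 HFD-fed mice treated with SZ-A were compared with those of 6 normal control (NC) mice, 12 of the 18 livers sequenced in the series. They were chosen by their sample titles, SZ-A livers against chow livers. The question was what still differed from the chow liver under SZ-A. All groups were male mice of the C57BL/6 strain (C57BL/6J in the study's methods), 6 weeks of age on arrival. NC mice were given a standard diet. HFD and SZ-A mice were fed the high-fat diet D12492 for 14 weeks and stayed on it during treatment, for 8 weeks in the deposited description and 6 weeks in the study's methods. HFD controls received saline. For NC mice no vehicle is given in the sources used here. SZ-A is the alkaloid fraction of Ramulus Mori (Sangzhi), the twig of mulberry, and holds mainly 1-deoxynojirimycin and related sugar-like alkaloids that inhibit alpha-glucosidases. The dose and the route of SZ-A in the sequenced mice are not given in the sources used here. All mice were fasted overnight before euthanasia. For NC6 the diet label reads high-fat although the title reads chow, and it was kept in NC by its title. Diet and treatment both differ between SZ-A and NC mice. The 6 HFD livers are therefore given beside the FPKM levels and beside the count of each process list.

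In the fed liver, insulin and glucose drive glycolysis and fatty acid synthesis, while in fasting the liver oxidises fatty acids through PPARα, makes glucose and ketone bodies, and degrades amino acids with disposal of the nitrogen as urea. A long high-fat diet fills hepatocytes with triglyceride and brings macrophages, interferon-induced genes and matrix genes into the liver. Expression was given by the authors as FPKM, fragments scaled to gene length and library size, and multiplying back by gene length returned whole fragment numbers in 100% of cases. NC livers held 17366205 to 20493907 fragments on genes, SZ-A livers 17191725 to 18956824 and HFD livers 17163191 to 20295316. The first principal component of all 18 livers held 28.6% of the variance. It placed NC mice between 16.7 and 49.8 and SZ-A mice between -15.1 and 0.6. Of the NC mice NC6 lay nearest to the other groups, at 16.7, and NC5 farthest, at 49.8. SZ-A5 lay apart on the third component, at -35.5. Hepatocyte markers dominated every liver, with a summed level of 42908 to 63500 FPKM in NC and 35558 to 60262 FPKM in SZ-A mice over 15 genes.

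Genes entered the test if their FPKM averaged 1 or more across all 18 mice. Of these 10216 genes, 981 (9.6%) differed between SZ-A and NC livers (limma, adjusted p under 0.05 with a change of over 1.2-fold). Of these, 542 (5.31% of those tested) were higher and 439 (4.3%) lower with SZ-A, and 126 and 79 passed a fold change of 2. The count was 601 without SZ-A3 and 629 without SZ-A6, and 947 without NC6. It was 1408 without both NC5 and SZ-A5, an alternative added after the data were seen. Against the same NC mice, HFD mice had 2062 called genes (20.2%), 1092 (10.7%) higher and 970 (9.49%) lower. SZ-A and HFD livers compared directly differed in 15 genes (0.147%), and 1515 genes had an unadjusted p under 0.05 there. This count was 2 without HFD4 or SZ-A6, 49 without SZ-A2, 0 with no filter on low values and 216 with a common sum of FPKM. The study, with DESeq2 at the same thresholds, reported many more genes between these groups, with Col1a1, Col1a2 and Col3a1 lower in SZ-A livers. Both comparisons with NC share the NC mice, so their values are given side by side and no overlap of calls was tested. The comparison of SZ-A with HFD is the test of whether the distance from NC differed between both groups. The median log2 fold change of all genes tested was -0.006 between SZ-A and NC. Rescaling each mouse to a common sum of FPKM moved the median of all genes to 0.008 for SZ-A against NC, to 0.154 for HFD against NC and to -0.149 for SZ-A against HFD. Fold changes are those of log2(FPKM + 0.1), so changes of weakly expressed genes are understated.

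**Figure D1:**
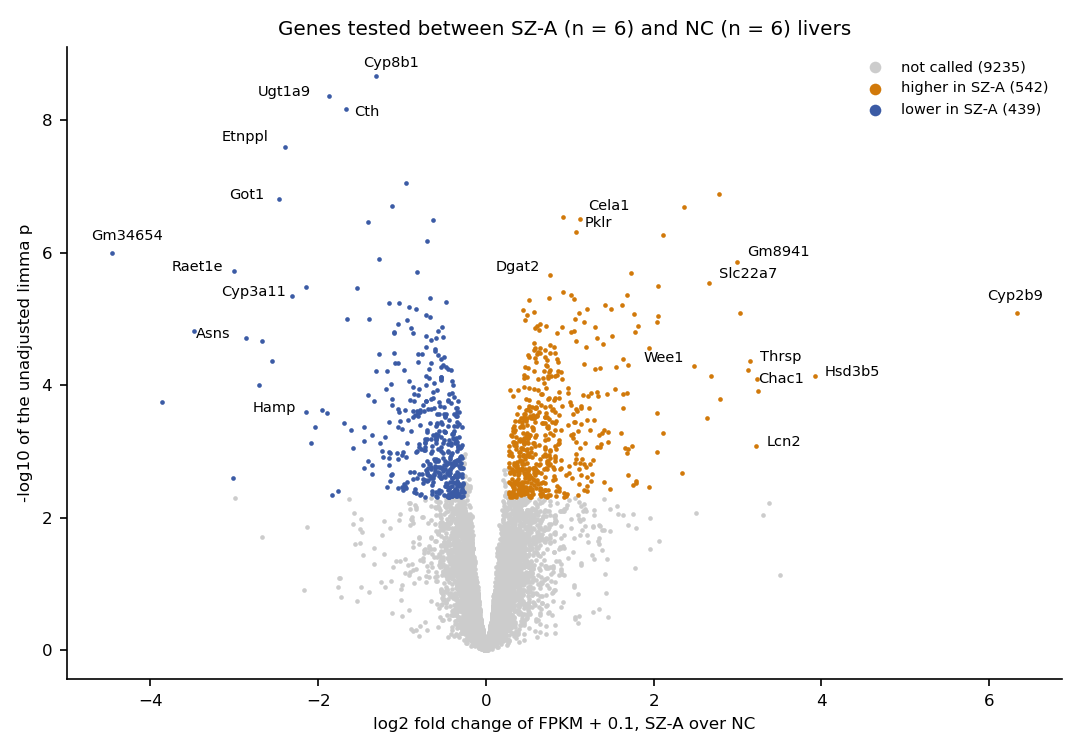
Each point is 1 of the 10216 genes tested, with the log2 fold change between SZ-A and NC livers on the x axis and -log10 of the unadjusted limma p on the y axis. Called genes are colored by direction (542 higher, 439 lower), with Cyp8b1 at the top and Cyp2b9 (6.33) farthest to the right.

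Ranked by adjusted p, the lower genes were led by enzymes and carriers of bile acid and amino acid metabolism. Cyp8b1 (ENSMUSG00000050445, chromosome 9, 121914356 to 121916305 of GRCm38) encodes the sterol 12-alpha-hydroxylase that commits bile acid synthesis to cholic acid. Its level was 447 to 627 FPKM (median 524) in NC mice and 201 to 243 FPKM (median 205) in SZ-A mice, against 95.5 to 281 FPKM (median 178) in HFD mice. All SZ-A mice lay below all NC mice, at about the level of HFD mice (log2 fold change -1.31, SE 0.09, adjusted p = 2.19e-05 by limma). Next came Ugt1a9, which conjugates drugs and other substrates with glucuronic acid, Cth, the last enzyme of cysteine synthesis, and Etnppl, which breaks down phosphoethanolamine. The rest of the 12 were Tmed5 (cargo transport from the ER), Got1 (cytosolic aspartate aminotransferase), Slc25a15 (mitochondrial ornithine carrier), Slc25a22 (mitochondrial glutamate carrier), AU022252, Brap, the long noncoding RNA Gm34654 and Itih5. Their log2 fold changes were -1.87 for Ugt1a9, -1.67 for Cth, -2.40 for Etnppl, -0.95 for Tmed5, -2.47 for Got1, -1.12 for Slc25a15, -1.41 for Slc25a22, -0.63 for AU022252, -0.70 for Brap, -4.46 for Gm34654 and -1.27 for Itih5, with adjusted p from 2.19e-05 to 0.000712. Gm34654 was at 0 FPKM in 4 SZ-A mice and at most 0.377 FPKM, so its fitted fold change is no measure of its size. Ugt1a9 shares exons with the other genes of the Ugt1a cluster, and its fragments could have been split among them. None of these 12 had overlapping ranges between NC and SZ-A mice. Ranges did not overlap in 484 of the 981 called genes and in 562 of all 10216 genes tested. The 12 were chosen by adjusted p in these same mice, so their separated ranges are no further evidence.

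The 12 higher genes of smallest adjusted p belonged to several kinds. Pklr, the liver pyruvate kinase that ends glycolysis, was 14.8 to 22.6 FPKM (median 17.4) in NC mice and 33.2 to 45.9 FPKM (median 36.3) in SZ-A mice, against 21.7 to 54.3 FPKM (median 31.5) in HFD mice (log2 fold change 1.08, SE 0.12, adjusted p = 0.000351). Dgat2, which makes triglyceride from diacylglycerol, was 111 to 145 FPKM (median 126) in NC mice and 181 to 245 FPKM (median 215) in SZ-A mice, against 178 to 227 FPKM (median 195) in HFD mice (log2 fold change 0.76, SE 0.10, adjusted p = 0.000979). Every SZ-A mouse was above every NC mouse for both genes. Aacs, which activates acetoacetate for lipid synthesis, and Acsm1, a medium-chain acyl-CoA synthetase, were also among the 12, with log2 fold changes of 2.11 and 0.92. Slc22a7 (a transporter of organic anions), Sult1c2 (a sulfotransferase), Cenpm (a centromere protein) and Pcp4l1 rose by 2.66, 1.73, 2.05 and 2.36 on the log2 scale. Cela1, an elastase best known from the exocrine pancreas, was 3.03 to 5.07 FPKM (median 4.79) in NC mice and 8.58 to 10.5 FPKM (median 9.87) in SZ-A mice, against 4.37 to 8.76 FPKM (median 5.89) in HFD mice (log2 fold change 1.12, SE 0.12, adjusted p = 0.000274). For Cela1 the HFD mice were not called against NC, at 0.44 (adjusted p = 0.115), and the direct difference between SZ-A and HFD was 0.68 (adjusted p = 0.1). The remaining 3 were the noncoding or pseudogene transcripts 9030619P08Rik, 4930581F22Rik and Gm8941 (2.78, 0.92 and 2.99), and the pseudogenes could share fragments with their parent genes. Adjusted p of the 12 ran from 0.00022 to 0.00146. None had overlapping ranges, which is no further evidence, as they were chosen by adjusted p in the same mice.

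Genes of the urea cycle and of amino acid breakdown had the most lower members of the 34 process lists. Of 45 tested members, 23 were lower, 3 higher and 19 not called, against 4.3% lower over all genes, and their median log2 fold change was -0.59. In HFD mice 28 were lower and 4 higher (median -0.67), and no member was called by limma between SZ-A and HFD (median 0.04, 10 at an unadjusted p under 0.05, 0 called by voom). Averaged over the list, all 6 SZ-A mice lay below all NC mice, at -0.65 to -0.27 on the log2 scale from the NC mean, against -0.21 to 0.28 in NC and -0.73 to -0.45 in HFD mice. The count of lower members stayed between 20 and 24 when single mice were left out. The number of higher members was 6 without SZ-A5.

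**Figure D2:**
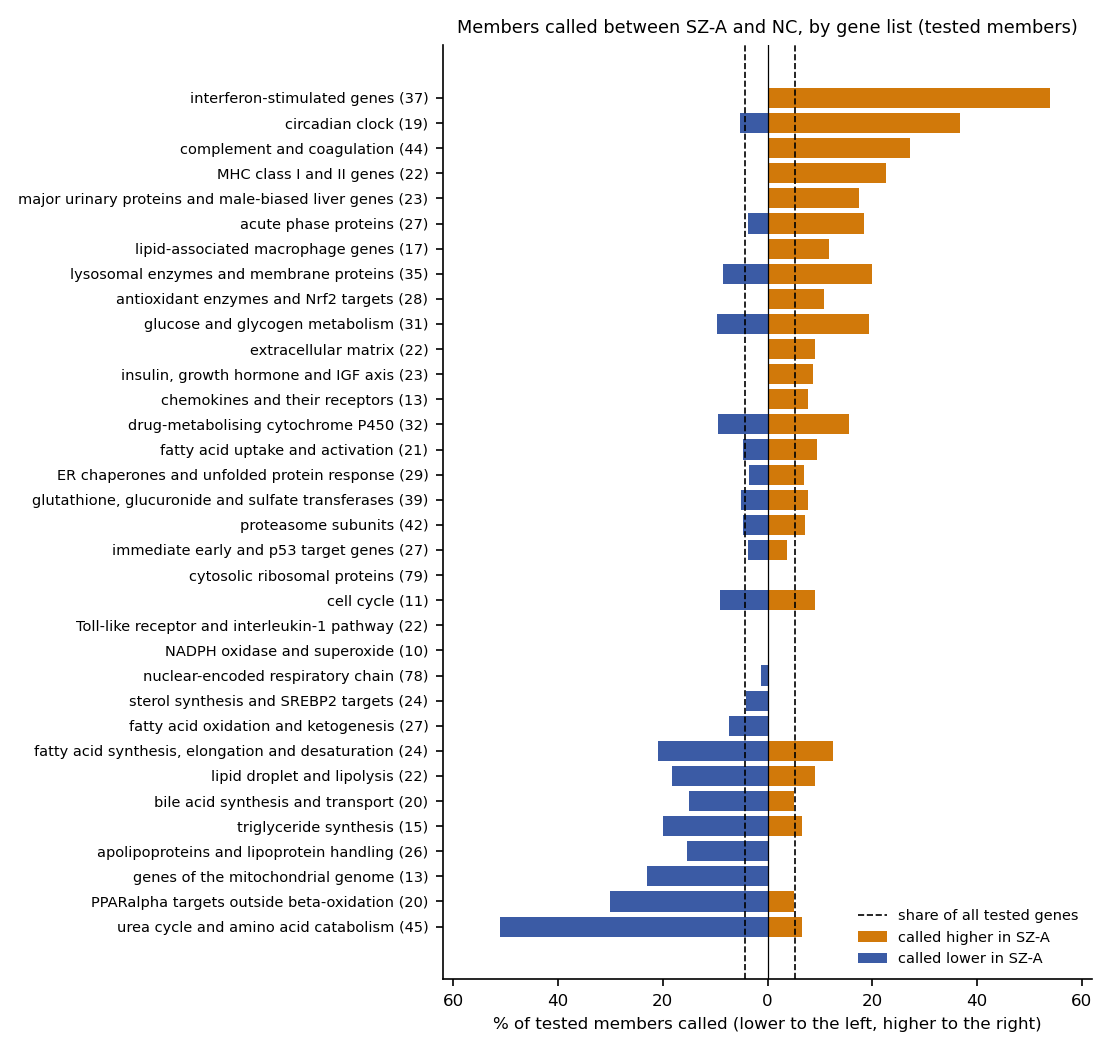
Bars give, for each of the 34 process lists, the percentage of tested members (number in parentheses) called higher (right) or lower (left) in SZ-A than in NC livers; dashed lines are the shares over all genes, 5.31% and 4.3%. Interferon-stimulated genes reach farthest to the right and genes of the urea cycle and amino acid catabolism farthest to the left.

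Within the urea cycle, carbamoyl phosphate synthetase Cps1 (ENSMUSG00000025991, chromosome 1, 67123026 to 67231259 of GRCm38), which fixes ammonia, was 855 to 1517 FPKM (median 1211) in NC mice and 445 to 712 FPKM (median 527) in SZ-A mice, against 358 to 558 FPKM (median 425) in HFD mice. The ranges of NC and SZ-A mice did not overlap (log2 fold change -1.09, SE 0.16, adjusted p = 0.00205). Argininosuccinate synthase Ass1, argininosuccinate lyase Asl and arginase Arg1, which carry nitrogen on to urea, were lower by log2 fold changes of -1.05, -1.66 and -1.04 (adjusted p = 0.00366, 0.00181 and 0.00908), again without overlap. Asl had a median of 296 FPKM in NC, 91.8 FPKM in SZ-A and 75.3 FPKM in HFD mice, with 195 FPKM in the lowest NC mouse. The carrier Slc25a15, which brings ornithine into mitochondria, fell with them. Ornithine transcarbamylase, Otc, the step between them, was not called and had a positive fold change (log2 fold change 0.37, adjusted p = 0.0579), with 51.2 to 84.6 FPKM (median 68.2) in NC mice and 77.7 to 94.5 FPKM (median 88.2) in SZ-A mice, against 73.1 to 109 FPKM (median 83.7) in HFD mice. So 5 of the genes around this cycle fell and Otc did not pass.

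Among the enzymes that strip amino acids, Got1 (ENSMUSG00000025190, chromosome 19, 43499752 to 43524605 of GRCm38) was 158 to 531 FPKM (median 257) in NC mice and 38.6 to 62.4 FPKM (median 45.7) in SZ-A mice, against 42.1 to 77.9 FPKM (median 48.5) in HFD mice. This is a fold change of 5.55 between NC and SZ-A, with all SZ-A mice below all NC mice (log2 fold change -2.47, SE 0.25, adjusted p = 0.000224). Cth (ENSMUSG00000028179, chromosome 3, 157894248 to 157925077 of GRCm38) was 330 to 521 FPKM (median 439) in NC mice and 112 to 169 FPKM (median 135) in SZ-A mice, against 108 to 166 FPKM (median 127) in HFD mice (log2 fold change -1.67, SE 0.13, adjusted p = 2.35e-05). Serine dehydratase Sds and its homologue Sdsl, which turn serine into pyruvate, histidine ammonia-lyase Hal and the lysine-degrading Aass had log2 fold changes of -1.34 for Sds, -1.41 for Sdsl, -1.19 for Hal and -1.12 for Aass. Also called lower were Gls2, Gpt2, Tdo2, Hgd, Amdhd1, Kynu, Bhmt, Mat1a, Ahcy, Cbs, Oat and Agxt, which act on glutamine, alanine, tryptophan, tyrosine, histidine, methionine, ornithine and glyoxylate. The 3 higher members were Glul, the glutamine synthetase of hepatocytes around the central vein (log2 fold change 0.61, adjusted p = 0.00197), Agxt2 (log2 fold change 0.63, adjusted p = 0.00205) and Haao of the kynurenine route (log2 fold change 0.48, adjusted p = 0.0184). For each of the 14 members named here with values, the direct difference between SZ-A and HFD was not called, with adjusted p of at least 0.203. The call of Sdsl was lost without SZ-A3 (adjusted p up to 0.0575). Asns, which makes asparagine and responds to amino acid shortage through ATF4, was lower too, 2.41 to 5.46 FPKM (median 4.48) in NC mice and 0.164 to 1.55 FPKM (median 0.422) in SZ-A mice, against 0.0592 to 0.637 FPKM (median 0.307) in HFD mice (log2 fold change -2.86, SE 0.44, adjusted p = 0.00231).

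**Figure D3:**
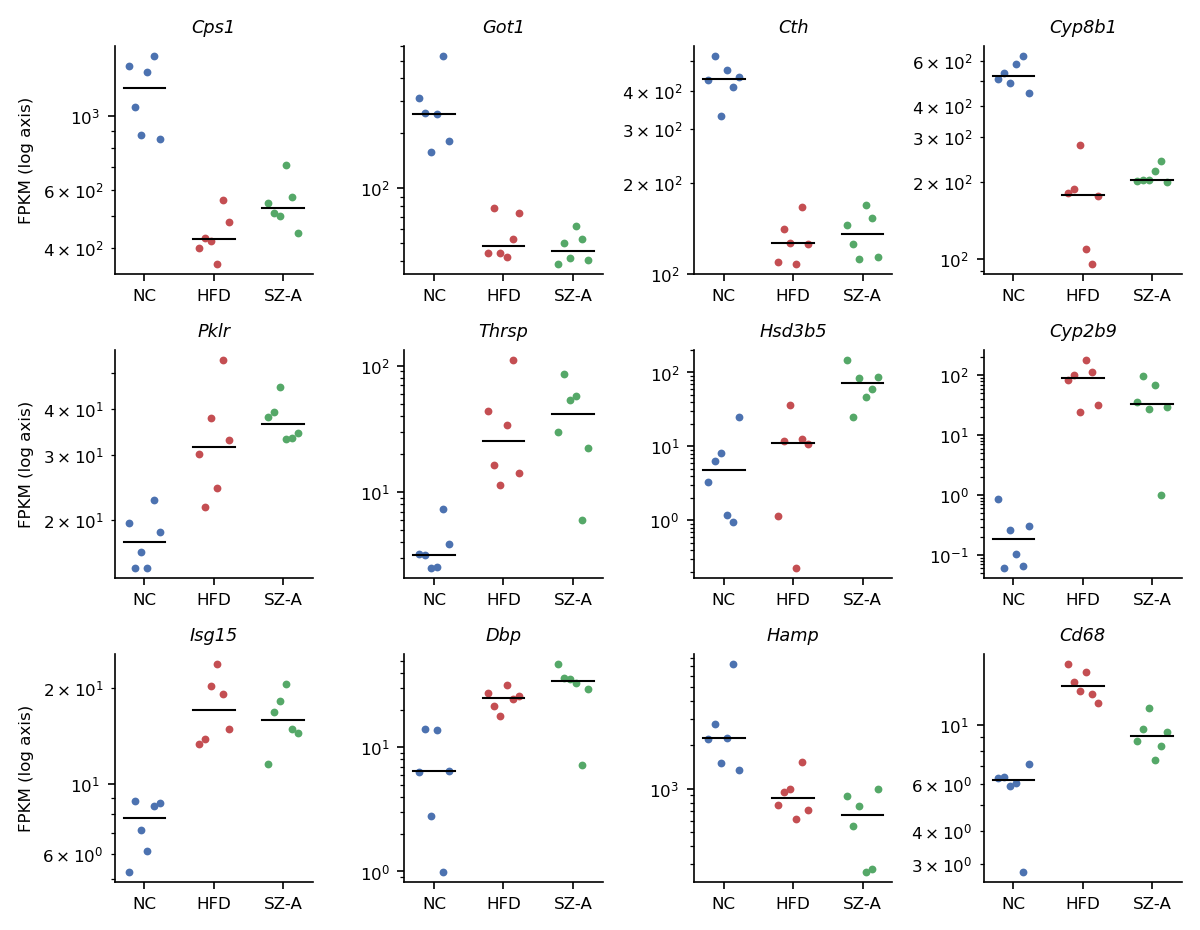
FPKM of 12 genes in every mouse (log axes), with a bar at the median of each group of 6. Cps1, Got1, Cth and Cyp8b1 lie lower in all HFD and SZ-A mice than in all NC mice; Hsd3b5 is highest in SZ-A mice, and Cd68 in SZ-A mice lies between NC and HFD mice.

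Of the 34 process lists, interferon-stimulated genes had the highest share of higher genes. They are switched on by type I and type II interferons through STAT and IRF factors, and many of their products block viruses. Of 37 tested members, 20 were higher and none lower, against 5.31% higher over all genes, with a median log2 fold change of 0.56. In HFD mice 27 were higher (median 0.77, background 10.7%), and none was called between SZ-A and HFD by limma (median -0.12, 5 at an unadjusted p under 0.05, 0 called by voom). The count fell to 10 without NC4 or SZ-A3, 12 without NC1 and 13 without NC3 or SZ-A4, and was 23 without NC6. In bulk liver, a change in the number of cells that express a gene and a change in its RNA per cell cannot be told apart.

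Many of these genes carry an interferon-stimulated response element, the DNA site of IRF and STAT complexes, close to their start. The promoter windows of RefSeq (GRCm38.p6, 250 bases before to 50 after the start) were searched on both strands for its core GAAANNGAAA, a motif chosen after the values were seen. Windows were found for 27 of the 37 tested members, and 18 of them held a match, against 1079 of all 27025 genes with a window (3.99%). Of the 14 called members with a window 11 held one, and of the 13 members not called 7 did, so members with and without a call both carried it. For 6 called members the 60 bases around the matches are shown, 5′ to 3′ on the gene's strand, with every match in capitals (in Ifit1 and Gbp3 the matches are on the other strand). They show how the matches overlap or lie side by side within a few bases.
Ifit1, chr19:34640769-34640828 (+ strand): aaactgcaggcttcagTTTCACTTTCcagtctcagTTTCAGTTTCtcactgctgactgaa
Isg15, chr4:156200856-156200915 (- strand): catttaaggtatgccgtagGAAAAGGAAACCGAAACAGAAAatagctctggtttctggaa
Oas1a, chr5:120907526-120907585 (- strand): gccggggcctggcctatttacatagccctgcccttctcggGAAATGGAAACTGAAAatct
Bst2, chr8:71537565-71537624 (- strand): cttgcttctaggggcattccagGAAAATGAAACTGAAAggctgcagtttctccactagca
Irgm1, chr11:48871421-48871480 (- strand): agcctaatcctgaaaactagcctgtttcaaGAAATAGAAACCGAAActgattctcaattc
Gbp3, chr3:142559977-142560036 (+ strand): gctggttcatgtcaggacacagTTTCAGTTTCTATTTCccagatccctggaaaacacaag
The stretches of Isg15 held 3 overlapping matches and those of the other 5 genes 2 each. A match is a run of letters and not a measured site.

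Isg15 (ENSMUSG00000035692, chromosome 4, 156199424 to 156200818 of GRCm38), a ubiquitin-like protein that is attached to other proteins in the antiviral response, was 5.26 to 8.8 FPKM (median 7.81) in NC mice and 11.5 to 20.6 FPKM (median 15.9) in SZ-A mice, against 13.3 to 23.9 FPKM (median 17) in HFD mice. No NC mouse reached the lowest SZ-A mouse (log2 fold change 1.11, SE 0.16, adjusted p = 0.00172). Ifitm3, a membrane protein that blocks virus entry, was 174 to 293 FPKM (median 219) in NC mice and 359 to 565 FPKM (median 469) in SZ-A mice, against 348 to 557 FPKM (median 390) in HFD mice (log2 fold change 1.06, SE 0.15, adjusted p = 0.00181). Zbp1, a sensor of Z-form nucleic acid, and Usp18, which removes Isg15 and dampens interferon signaling, had log2 fold changes of 1.30 and 0.98 (adjusted p = 0.00197 and 0.00601), also without overlap. Ifi27l2b was 2.29 to 5.15 FPKM (median 3.72) in NC mice and 3.95 to 17.8 FPKM (median 12.2) in SZ-A mice, against 14 to 29.6 FPKM (median 19.6) in HFD mice (log2 fold change 1.46, SE 0.33, adjusted p = 0.0158), and fragments could have been shared with its close homologues. For Ifit1, which binds foreign RNA, Oas1a, which senses double-stranded RNA, and Rtp4 the ranges met (log2 fold change 1.21 and adjusted p = 0.0325 for Ifit1, 1.12 and 0.0177 for Oas1a and 1.04 and 0.00938 for Rtp4). The other members whose promoter stretches are shown had log2 fold changes of 0.54 for Bst2, 0.50 for Irgm1 and 0.87 for Gbp3, and that of the RNA sensor Ifih1 was 0.47. When single mice were left out, the call was lost in 6 of 12 fits for Ifit1 (adjusted p up to 0.0776), 8 of 12 fits for Bst2 (adjusted p up to 0.0788) and 7 of 12 fits for Ifih1 (adjusted p up to 0.0669). Of 22 MHC and antigen-processing genes 5 were higher and none lower (22.7% called, against 9.6% over all genes, median 0.18). They numbered 3 without NC4 or SZ-A2 or SZ-A3 or SZ-A6. In HFD mice there were 7 higher and 0 lower MHC and antigen-processing genes. With all mice they were H2-T22, H2-T23, Tapbp, Psmb8 and Psmb9, of which H2-T22 (log2 fold change 0.57, adjusted p = 0.00172) belongs to a family of near-identical genes. The immunoproteasome subunits Psmb8 (log2 fold change 0.74, adjusted p = 0.0152), Psmb9 (log2 fold change 0.72, adjusted p = 0.0273) and Psmb10 were the 3 higher members among 42 proteasome genes, and 2 others, Psmd9 and Psmd4, were lower with a median of -0.08 over the list. The called share of proteasome genes between SZ-A and NC was 11.9%, against 9.6% over all genes. In HFD mice 14 proteasome genes were lower (median -0.23). Leaving out each mouse in turn, the call was lost in 4 of 12 fits for Psmb9 (adjusted p up to 0.0648).

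**Figure D4:**
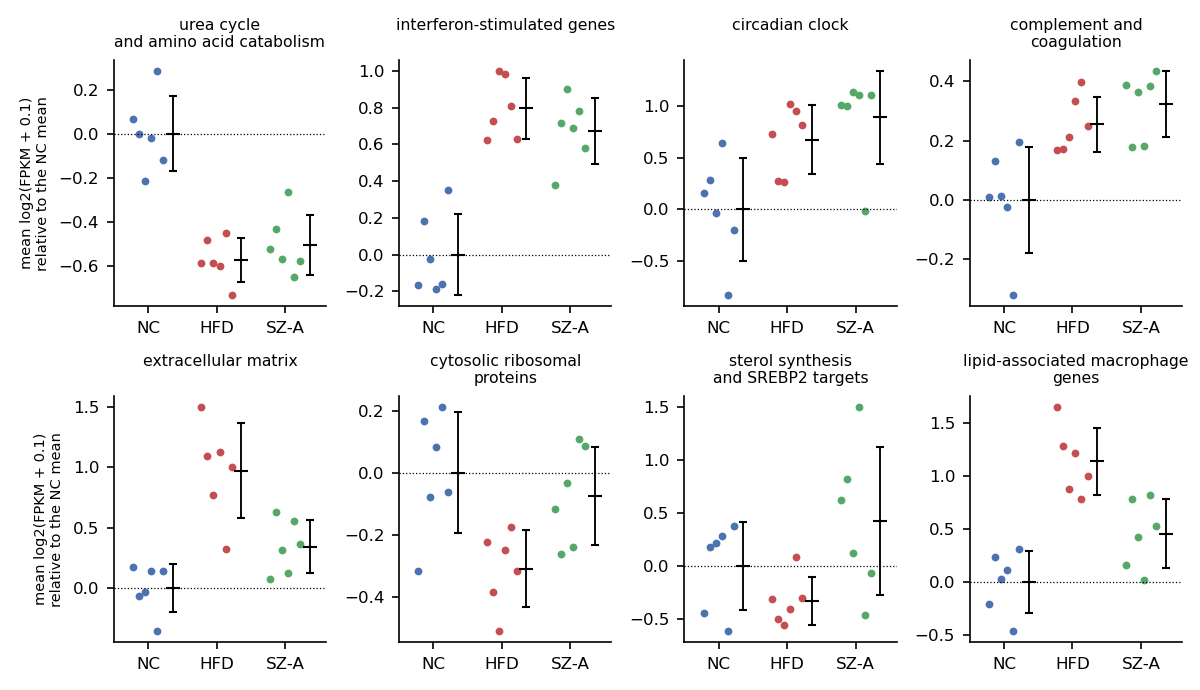
Each point is 1 mouse, with the mean over the tested members of a list of log2(FPKM + 0.1) relative to the NC mean; bars are the group mean and SD (n = 6). For the urea cycle and interferon lists no SZ-A mouse overlaps the NC mice, while for the ribosomal and sterol lists the SZ-A and NC mice overlap.

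Genes of glucose and glycogen metabolism changed in both directions. Of 31 tested genes 6 were higher and 3 lower (29% called, against 9.6% over all genes, median 0.02). In HFD mice there were 7 higher and 7 lower members. Pfkfb3, which makes the activator of phosphofructokinase, and the glycogen branching enzyme Gbe1 were higher (log2 fold change 1.2 and adjusted p = 0.0436 for Pfkfb3 and 0.72 and 0.00197 for Gbe1), as were Pfkl, Pygl and Khk. Pfkl acts in glycolysis, Pygl in glycogen breakdown and Khk in fructose use. The lower members included Gys2, the liver glycogen synthase, and Pck1, the control enzyme of gluconeogenesis (log2 fold change -0.52 and adjusted p = 0.0271 for Gys2 and -0.61 and 0.0236 for Pck1). Pck1 was 919 to 1597 FPKM (median 1091) in NC mice and 607 to 923 FPKM (median 762) in SZ-A mice, against 406 to 659 FPKM (median 500) in HFD mice, with ranges of NC and SZ-A mice that overlapped. In HFD mice the log2 fold change of Pck1 was -1.15 (adjusted p = 0.000253), and between SZ-A and HFD it was 0.53 (adjusted p = 0.133). The count of lower members was 0 without NC4 or SZ-A6 and 1 without SZ-A1 or SZ-A2. Among fits without 1 mouse, the call was lost in 9 of 12 fits for Pfkfb3 (adjusted p up to 0.1), 4 of 12 fits for Gys2 (adjusted p up to 0.0601) and 3 of 12 fits for Pck1 (adjusted p up to 0.0575).

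Fatty acid synthesis genes also changed in both directions. Of 24 tested genes 3 were higher and 5 lower (33.3% called, against 9.6% over all genes, median 0.03). Thrsp (ENSMUSG00000035686, chromosome 7, 97412938 to 97417730 of GRCm38), a lipogenic factor driven by thyroid hormone and carbohydrate, was 2.51 to 7.31 FPKM (median 3.21) in NC mice and 6.01 to 85.6 FPKM (median 41.6) in SZ-A mice, against 11.4 to 111 FPKM (median 25.2) in HFD mice (log2 fold change 3.15, SE 0.53, adjusted p = 0.00359). The lowest SZ-A mouse fell within the NC range, and the other 5 lay above it. With Thrsp and Pklr rose Mlxipl, the carbohydrate response factor ChREBP (log2 fold change 0.70, adjusted p = 0.0175). Elovl3 and Elovl5, which lengthen saturated and polyunsaturated fatty acids, and Insig2, which holds SREBP in the ER, were lower (log2 fold change -1.61 and adjusted p = 0.0128 for Elovl3, -1.31 and 0.00406 for Elovl5 and -1.45 and 0.0155 for Insig2), as were Elovl2 and the malic enzyme Me1. In HFD mice 7 synthesis genes were higher and 6 lower, with 0 and 5 for the sterol list. Of 24 sterol synthesis genes only Hsd17b7 was called, as lower (log2 fold change -0.70, adjusted p = 0.0358), while the list's median was 0.51, and the list means of SZ-A mice ran from -0.46 to 1.5 on the log2 scale. With 1 mouse left out at a time, the call was lost in 8 of 12 fits for Hsd17b7 (adjusted p up to 0.0813).

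Genes that store and release triglyceride were mostly lower where they were called. Of 22 lipid droplet and lipolysis genes 4 were lower and 2 higher (27.3% called, against 9.6% over all genes, median 0.05). Cidec, which fuses lipid droplets, was 29.5 to 115 FPKM (median 44.8) in NC mice and 5.29 to 43.9 FPKM (median 17) in SZ-A mice, against 14.5 to 51.1 FPKM (median 29.2) in HFD mice (log2 fold change -1.76, SE 0.50, adjusted p = 0.0438). The groups overlapped, with the lowest values in SZ-A mice. Plin5, which couples droplets to mitochondria, Pnpla2, the adipose triglyceride lipase, and the droplet enzyme Hsd17b13 were lower (log2 fold change -0.98 and adjusted p = 0.0381 for Plin5, -0.87 and 0.00986 for Pnpla2 and -0.81 and 0.00359 for Hsd17b13), and the carboxylesterase Ces1g was higher (log2 fold change 1.17, adjusted p = 0.0435), a member of a cluster of similar genes. Among 15 triglyceride synthesis genes Dgat2 was the only one higher, against lower Dgat1, Gpat4 and Agpat3 (log2 fold change -0.44 and adjusted p = 0.0498 for Dgat1 and -0.49 and 0.0133 for Gpat4). The number of lower triglyceride synthesis genes was 1 without NC3 or SZ-A1. Uptake and activation genes gave 2 higher (0.92 for Acsm1 and 0.79 for Acsm5 on the log2 scale) and 1 lower, Acsl4, which activates arachidonic acid (log2 fold change -0.72, adjusted p = 0.00553), of 21. The called share was 26.7% for triglyceride synthesis and 14.3% for uptake and activation genes, against 9.6% over all genes. Lower lipid droplet genes numbered 2 without NC2 or NC3 or NC4 or SZ-A1 or SZ-A3 or SZ-A6. In HFD mice there were 5 higher and 3 lower lipid droplet genes, 2 higher and 4 lower triglyceride synthesis genes and 6 higher and 2 lower uptake and activation genes. When single mice were left out, the call was lost in 9 of 12 fits for Cidec (adjusted p up to 0.0884), 7 of 12 fits for Plin5 (adjusted p up to 0.074), 9 of 12 fits for Ces1g (adjusted p up to 0.0903) and 10 of 12 fits for Dgat1 (adjusted p up to 0.109).

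Targets of PPARα, the fatty acid sensor of the fasted liver, were lower in part. Outside beta-oxidation 6 of 20 were lower and 1, Vnn1, was higher (35% called, against 9.6% over all genes, median -0.20). In HFD mice 8 were lower (median -0.46). Cyp4a14, an omega-hydroxylase of fatty acids, was 1444 to 4390 FPKM (median 2974) in NC mice and 1051 to 1891 FPKM (median 1288) in SZ-A mice, against 680 to 1664 FPKM (median 1188) in HFD mice (log2 fold change -1.06, SE 0.25, adjusted p = 0.0196), and its close homologue Cyp4a10 had a log2 fold change of -0.79. Pdk4, which blocks pyruvate oxidation in fasting, was 4.18 to 17.7 FPKM (median 8.25) in NC mice and 1.71 to 7.32 FPKM (median 2.24) in SZ-A mice, against 2.91 to 8.05 FPKM (median 5.44) in HFD mice (log2 fold change -1.58, SE 0.37, adjusted p = 0.0177). In HFD mice Pdk4 was not called against NC, at -0.62 (adjusted p = 0.168). Neither Pdk4 nor any other member of its list was called directly between SZ-A and HFD. Both Cyp4a genes and Pdk4 had ranges that overlapped. Ppara itself showed no call (log2 fold change 0.24, adjusted p = 0.703), nor did its coactivator Ppargc1a (log2 fold change -0.87, adjusted p = 0.125). Of 27 oxidation and ketogenesis genes 2 were lower (7.41%, against 4.3% over all genes), the carnitine palmitoyltransferase Cpt1a (log2 fold change -0.44, adjusted p = 0.0104) and the peroxisomal Ehhadh, which was 484 to 1159 FPKM (median 808) in NC mice and 242 to 418 FPKM (median 320) in SZ-A mice, against 218 to 577 FPKM (median 355) in HFD mice (log2 fold change -1.28, SE 0.21, adjusted p = 0.00312). The other 25 were not called (median -0.06). Of 26 apolipoprotein and lipoprotein genes 4 were lower, Apoa5, Apoc2, Angptl4 and Mttp (log2 fold change -0.61 and adjusted p = 0.00303 for Apoa5, -0.96 and 0.0399 for Apoc2 and -0.37 and 0.0469 for Angptl4). They numbered 2 without NC3 or NC4 or SZ-A2 or SZ-A6. The called share of apolipoprotein and lipoprotein genes was 15.4%, against 9.6% over all genes. In HFD mice there were 1 higher and 7 lower oxidation and ketogenesis genes and 5 higher and 7 lower apolipoprotein and lipoprotein genes. Leaving out each mouse in turn, the call was lost in 9 of 12 fits for Apoc2 (adjusted p up to 0.0874) and 8 of 12 fits for Angptl4 (adjusted p up to 0.0964).

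Among drug-metabolising genes, Cyp2b9 had the largest positive fold change of all 10216 genes. Cyp2b9 (ENSMUSG00000040660, chromosome 7, 26173411 to 26210661 of GRCm38), a cytochrome P450 that is usually higher in female than in male liver, was 0.0611 to 0.879 FPKM (median 0.183) in NC mice and 1.01 to 96.5 FPKM (median 32.5) in SZ-A mice, against 24.6 to 180 FPKM (median 90.4) in HFD mice. All SZ-A mice exceeded all NC mice, but SZ-A5 was at 1.01 FPKM, far under its group (log2 fold change 6.33, SE 0.90, adjusted p = 0.00172). Cyp3a11, a major xenobiotic P450, was 478 to 723 FPKM (median 572) in NC mice and 60.1 to 282 FPKM in SZ-A mice, against 105 to 286 FPKM (median 164) in HFD mice (log2 fold change -2.31, SE 0.31, adjusted p = 0.00149), with every SZ-A mouse lower. Cyp2c70, which makes muricholic acids in mice, and Cyp1a2 were higher (log2 fold change 1.70 and adjusted p = 0.0311 for Cyp2c70 and 0.98 and 0.00654 for Cyp1a2). In all, 5 of 32 P450 and regulator genes were higher, among them the receptor Nr1i3 and Cyp2d40, and 3 lower, Cyp3a11, Cyp3a25 and Cyp2c39. Members of these families are close in sequence and could share fragments. The count of higher members was 2 without SZ-A1 or SZ-A3, 3 without NC2 or SZ-A2 or SZ-A4 or SZ-A6 and 11 without SZ-A5, and that of lower ones 1 without NC1 or NC2 or NC3 or NC5 or SZ-A1 or SZ-A3 or SZ-A6. Of 20 bile acid genes 3 were lower, Cyp8b1, the phospholipid exporter Abcb4 and the uptake carrier Slco1a4 (log2 fold change -1.89, adjusted p = 0.00925). Slco1b2, another uptake carrier, was higher, at 128 to 266 FPKM (median 234) in NC mice and 323 to 392 FPKM (median 377) in SZ-A mice, against 234 to 373 FPKM (median 313) in HFD mice (log2 fold change 0.73, SE 0.16, adjusted p = 0.0119). Of 39 conjugating enzymes 3 were higher (Sult1c2, Gstt1 and Sult2a8) and 2 lower (Ugt1a9 and Gsto1), 12.8% called against 9.6% over all genes, with Gstt1 at 0.70 (adjusted p = 0.043), and higher members numbered 1 without NC1 or NC4 or SZ-A1 or SZ-A2 or SZ-A3 or SZ-A4 or SZ-A6. The called share was 25% for P450 and regulator genes and 20% for bile acid genes, against 9.6% over all genes. In HFD mice there were 8 higher and 6 lower P450 and regulator genes, 2 higher and 4 lower bile acid genes and 7 higher and 4 lower conjugating enzymes. Among fits without 1 mouse, the call was lost in 6 of 12 fits for Cyp2c70 (adjusted p up to 0.0659) and 9 of 12 fits for Gstt1 (adjusted p up to 0.088).

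Hsd3b5 (ENSMUSG00000038092, chromosome 3, 98618634 to 98630252 of GRCm38), a steroid reductase of male mouse liver that depends on pulsed growth hormone, was called higher in SZ-A than in NC mice. Its level was 0.957 to 24.7 FPKM (median 4.87) in NC mice and 24.8 to 148 FPKM (median 72) in SZ-A mice, against 0.227 to 36 FPKM (median 11.2) in HFD mice. All SZ-A mice lay above all NC mice, by 3.92 on the log2 scale (SE 0.69, adjusted p = 0.00459), although the highest NC mouse, NC6 at 24.7 FPKM, was close to the lowest SZ-A mouse. The HFD mice were not called against NC, at 0.33 (adjusted p = 0.859). The direct difference between SZ-A and HFD, 3.59 (adjusted p = 0.126), did not pass, so it is not shown that SZ-A and HFD mice differed. Mup18, a major urinary protein, was higher as well, at 1.39 to 8.66 FPKM (median 3.78) in NC mice and 5.69 to 53.6 FPKM (median 15.8) in SZ-A mice, against 1.37 to 15.4 FPKM (median 6.5) in HFD mice (log2 fold change 2.04, adjusted p = 0.0196). In HFD mice the log2 fold change of Mup18 was 0.50 (adjusted p = 0.557). The direct difference between SZ-A and HFD, 1.54 (adjusted p = 0.255), was not called, so a difference between these groups is not shown. Mup genes are near-identical copies, and which copy the fragments came from is uncertain. With Nudt7, a peroxisomal CoA hydrolase (log2 fold change 1.5, adjusted p = 0.00226), and Sult2a8 these were the 4 higher of 23 male-biased genes and Mup genes (median 0.25, none lower). The called share of this list was 17.4%, against 9.6% over all genes. In HFD mice 1 was higher and 2 were lower (median -0.12). List means of single mice spread from -1.11 to 1.66 in SZ-A and from -1.04 to 0.41 in NC mice. Of 23 genes of the insulin, growth hormone and IGF axis 2 were higher (8.7%, against 5.31% over all genes), Socs3, the feedback inhibitor of JAK-STAT signaling (log2 fold change 1.11, adjusted p = 0.0378), and Igfals, which carries IGF in blood (log2 fold change 0.82, adjusted p = 0.00719). In HFD mice 5 were higher and 3 lower. With 1 mouse left out at a time, the call was lost in 7 of 12 fits for Socs3 (adjusted p up to 0.0828).

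Genes of the circadian clock and its output were higher in 7 and lower in 1 of 19 tested members (median 0.68, in HFD mice 6 and 1, median 0.61). The called share between SZ-A and NC was 42.1%, against 9.6% over all genes. The liver clock turns over daily, with CLOCK and BMAL1 (Arntl) driving the repressors Per and Cry and output factors such as Dbp. Dbp (ENSMUSG00000059824, chromosome 7, 45705088 to 45710203 of GRCm38) was 0.99 to 14 FPKM (median 6.39) in NC mice and 7.22 to 47.1 FPKM (median 34.6) in SZ-A mice, against 18 to 31.7 FPKM (median 25.1) in HFD mice (log2 fold change 2.34, SE 0.61, adjusted p = 0.03). The lowest SZ-A mouse, SZ-A5, lay in the NC range, and the other 5 lay above it. Wee1, a cell cycle kinase under clock control, was 0.604 to 2.12 FPKM (median 0.877) in NC mice and 1.37 to 9.37 FPKM (median 7.73) in SZ-A mice, against 3.1 to 7.78 FPKM (median 5.84) in HFD mice (log2 fold change 2.48, SE 0.42, adjusted p = 0.0039). Higher too were, among others, Per3, Per2, the repressor Bhlhe40 and Cry2 (log2 fold changes 1.95 for Per3, 1.36 for Per2, 1.64 for Bhlhe40 and 0.58 for Cry2), and Clock was lower (log2 fold change -0.63, adjusted p = 0.033). Arntl was under the expression filter. The list mean was -0.02 in the lowest SZ-A mouse and at most 1.14, and it ran from -0.84 to 0.64 in NC mice. Higher members numbered 4 without SZ-A3 or SZ-A6 and 11 without SZ-A5. When single mice were left out, the call was lost in 7 of 12 fits for Dbp (adjusted p up to 0.0672), 10 of 12 fits for Per3 (adjusted p up to 0.088) and 10 of 12 fits for Clock (adjusted p up to 0.0707). The time of day at which each mouse was killed is not given in the sources used here, and its part in these values was not tested. The E-box CACGTG, the core site of CLOCK and BMAL1, lay within the promoter windows of 4 of 15 clock genes matched and of 8.09% of all genes, and in 0 of the 4 called members matched. This says only that these letters are outside those windows.

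Of the acute phase and complement genes called, all but hepcidin were higher. Of 27 acute phase genes 5 were higher and 1 lower (22.2% called, against 9.6% over all genes, median 0.54, in HFD mice 12 and 2). Lcn2, which binds bacterial iron carriers, was 0.685 to 5.92 FPKM (median 1.7) in NC mice and 2.76 to 101 FPKM (median 17.1) in SZ-A mice, against 15.6 to 168 FPKM (median 31.2) in HFD mice (log2 fold change 3.22, SE 0.75, adjusted p = 0.0172). Its ranges overlapped and the spread within SZ-A mice was wide. Saa4, an apolipoprotein, and Orm3, a serum glycoprotein of the acute phase, had no overlap (log2 fold change 2.05 and adjusted p = 0.00176 for Saa4 and 2.11 and 0.0135 for Orm3). Itih4 (1.04) and Steap4 were the remaining higher members. Hamp (ENSMUSG00000050440, chromosome 7, 30942368 to 30944032 of GRCm38), hepcidin, the hormone that blocks iron release into blood, was 1346 to 7251 FPKM (median 2231) in NC mice and 266 to 993 FPKM (median 657) in SZ-A mice, against 615 to 1520 FPKM (median 856) in HFD mice (log2 fold change -2.14, SE 0.43, adjusted p = 0.00914). All SZ-A mice were lower than all NC mice, and the NC mouse NC5 stood far above the others. The higher acute phase members numbered 9 without SZ-A4. Of 44 complement and coagulation genes 12 were higher and none lower (27.3% called, against 9.6% over all genes, median 0.29). In HFD mice 13 were higher and 3 lower (median 0.12). C4b, a complement protein, was 133 to 191 FPKM (median 171) in NC mice and 214 to 361 FPKM (median 330) in SZ-A mice, against 257 to 410 FPKM (median 305) in HFD mice (log2 fold change 0.85, SE 0.15, adjusted p = 0.00459). Serpina10, an inhibitor of clotting, rose by 0.83 on the log2 scale. Coagulation factor F11 was 11.3 to 17.4 FPKM (median 12.4) in NC mice and 14.6 to 27.3 FPKM (median 21.1) in SZ-A mice, against 10.6 to 16.1 FPKM (median 12.1) in HFD mice (log2 fold change 0.67, SE 0.14, adjusted p = 0.0108), where HFD mice stood at -0.08 (adjusted p = 0.702) and the direct difference at 0.75 (adjusted p = 0.0583). The others included C1qb, C1s1, C2, Cfi, C4bp, Masp2, Mbl1 and Plg. The number of higher complement and coagulation genes was 5 without SZ-A6, 6 without SZ-A3 and 7 without NC4 or SZ-A1. The call of Serpina10 was lost without SZ-A6 (adjusted p up to 0.0578).

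Matrix, macrophage and chemokine genes were called against NC in few members. Of 22 matrix genes 2 were higher (9.09%, median 0.28), and of 17 genes of lipid-associated macrophages 2 (11.8%, median 0.37), where 5.31% of all genes were higher. Between SZ-A and NC, 19 matrix and 16 macrophage genes had positive fold changes, with 9 and 9 genes at an unadjusted limma p under 0.05. In HFD mice 14 and 12 were higher (medians 0.83 and 1.05), where 10.7% of all genes were. Between SZ-A and HFD directly, 0 matrix and 2 macrophage genes were called by limma, as lower in SZ-A (medians -0.60 and -0.58). At an unadjusted p under 0.05 there were 15 and 11, and voom called 0 and 3. List means of SZ-A mice lay at 0.07 to 0.63 for matrix genes and at 0.02 to 0.82 for macrophage genes, overlapping with NC mice at -0.36 to 0.17 and -0.47 to 0.31. The called members were Col3a1, a fibrillar collagen that was 0.371 to 1.89 FPKM (median 1.36) in NC mice and 1.93 to 4.69 FPKM (median 2.63) in SZ-A mice, against 3.03 to 13.8 FPKM (median 9.2) in HFD mice (log2 fold change 1.2, SE 0.33, adjusted p = 0.0398), Lum, a collagen-binding proteoglycan (log2 fold change 0.59, adjusted p = 0.0271), Tyrobp, a signaling adaptor of myeloid cells (log2 fold change 0.64, adjusted p = 0.0466), and Cd68. Cd68 (ENSMUSG00000018774, chromosome 11, 69664213 to 69666153 of GRCm38), a lysosomal marker of macrophages, was 2.8 to 7.17 FPKM (median 6.19) in NC mice and 7.39 to 11.6 FPKM (median 9.07) in SZ-A mice, against 12.1 to 17 FPKM (median 14) in HFD mice. SZ-A mice were above NC mice (log2 fold change 0.71, SE 0.19, adjusted p = 0.0375) and, in the direct comparison, below HFD mice, with a log2 fold change of -0.64 (adjusted p = 0.0451). Of 13 chemokine genes 1 was higher, Cxcl1, which draws neutrophils, at 0.263 to 0.974 FPKM (median 0.599) in NC mice and 1.85 to 22.3 FPKM (median 3.65) in SZ-A mice, against 2.22 to 5.55 FPKM (median 4.48) in HFD mice (log2 fold change 2.79, SE 0.53, adjusted p = 0.00727). The called share of chemokine genes was 7.69%, near the 9.6% over all genes. In HFD mice 6 chemokine genes were higher and 0 lower. Of 22 Toll-like receptor and interleukin-1 genes and 10 genes of superoxide production 0 were called by limma, with medians of 0.05 and 0.38. At an unadjusted p under 0.05 there were 2 and 6, and voom called 0 and 1. The members with the largest fold changes were Il1r1 (log2 fold change 1.14, adjusted p = 0.0596) and Aox3 (log2 fold change 1.15, adjusted p = 0.097), and 4 and 7 members were higher in HFD mice. Leaving out each mouse in turn, the call was lost in 7 of 12 fits for Col3a1 (adjusted p up to 0.0797), 4 of 12 fits for Lum (adjusted p up to 0.0579), 10 of 12 fits for Tyrobp (adjusted p up to 0.103) and 8 of 12 fits for Cd68 (adjusted p up to 0.0876).

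Many genes measured by RT-PCR in the study were tested here, Ppara and Ppargc1a among them, as above. Cd68 and Col3a1 were called against NC. For the fatty acid transporter Cd36, the values were 10.9 to 41.3 FPKM (median 22.6) in NC mice and 31.7 to 78.1 FPKM (median 37.4) in SZ-A mice, against 77.6 to 117 FPKM (median 97.6) in HFD mice, and the difference from NC was not called (log2 fold change 0.84, SE 0.29, adjusted p = 0.0816), while that from HFD was, at -1.21 (adjusted p = 0.0382). The lectin Lgals1, 3.01 to 15.8 FPKM (median 9.89) in NC mice and 10 to 40.9 FPKM (median 17.4) in SZ-A mice, against 52 to 85.8 FPKM (median 63.8) in HFD mice, was likewise not called against NC (log2 fold change 1.12, adjusted p = 0.107) and was lower than in HFD mice, with a log2 fold change of -1.84 (adjusted p = 0.0298). Neither gene is thereby shown to equal NC, as the fold changes were positive, with an SE of 0.29 for Cd36 and 0.41 for Lgals1. The direct calls of Cd36 and Lgals1 were lost in 8 and 7 of 12 fits that left out 1 mouse (adjusted p up to 0.116 and 0.108). Lgals3, Col1a1 and the chemokine Ccl2 had positive fold changes without a call (log2 fold change 0.65 and adjusted p = 0.0794 for Lgals3, 0.74 and 0.211 for Col1a1 and 1.70 and 0.0877 for Ccl2), and for all 3 HFD mice were higher than NC mice (log2 fold changes 1.77, 2.53 and 3.05). The collagen Col1a2 and the matrix protease Mmp2 were not called against NC (log2 fold change 0.61 and adjusted p = 0.138 for Col1a2 and 0.44 and 0.112 for Mmp2) and were higher in HFD mice (1.91 and 1.33). Directly between SZ-A and HFD, none of Lgals3, Col1a1, Ccl2, Col1a2 and Mmp2 was called by limma. The log2 fold changes there were -1.12, -1.79, -1.35, -1.30 and -0.90, in that order (adjusted p = 0.0961, 0.1, 0.257, 0.124 and 0.109). The study's own test of its sequencing data reported Col1a1 and Col1a2 lower in SZ-A than in HFD livers. Against NC, Pparg, the macrophage marker Adgre1, Vim and the adiponectin receptors Adipor1 and Adipor2 were not called. Their log2 fold changes there were 0.60, 0.38, 0.07, -0.16 and 0.15, in that order (adjusted p = 0.111, 0.374, 0.866, 0.125 and 0.255). None was called directly between SZ-A and HFD, at -0.20, -0.50, -0.58, 0.04 and -0.09 (adjusted p = 0.695, 0.0977, 0.257, 0.799 and 0.781). By RT-PCR the study reported Pparg, Adgre1 and Vim lower, and both receptors higher, in SZ-A than in HFD livers. Ppara and Ppargc1a, also reported higher by RT-PCR, stood at -0.02 and -0.15 between these groups (adjusted p = 0.974 and 0.823). Timp1 and Tnf were below the expression filter, at 0.117 and 0.0333 FPKM on average in NC, 0.425 and 0.147 in SZ-A and 1.31 and 0.234 in HFD mice. Col6a3 and Mmp9 were below it as well.

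**Figure D5:**
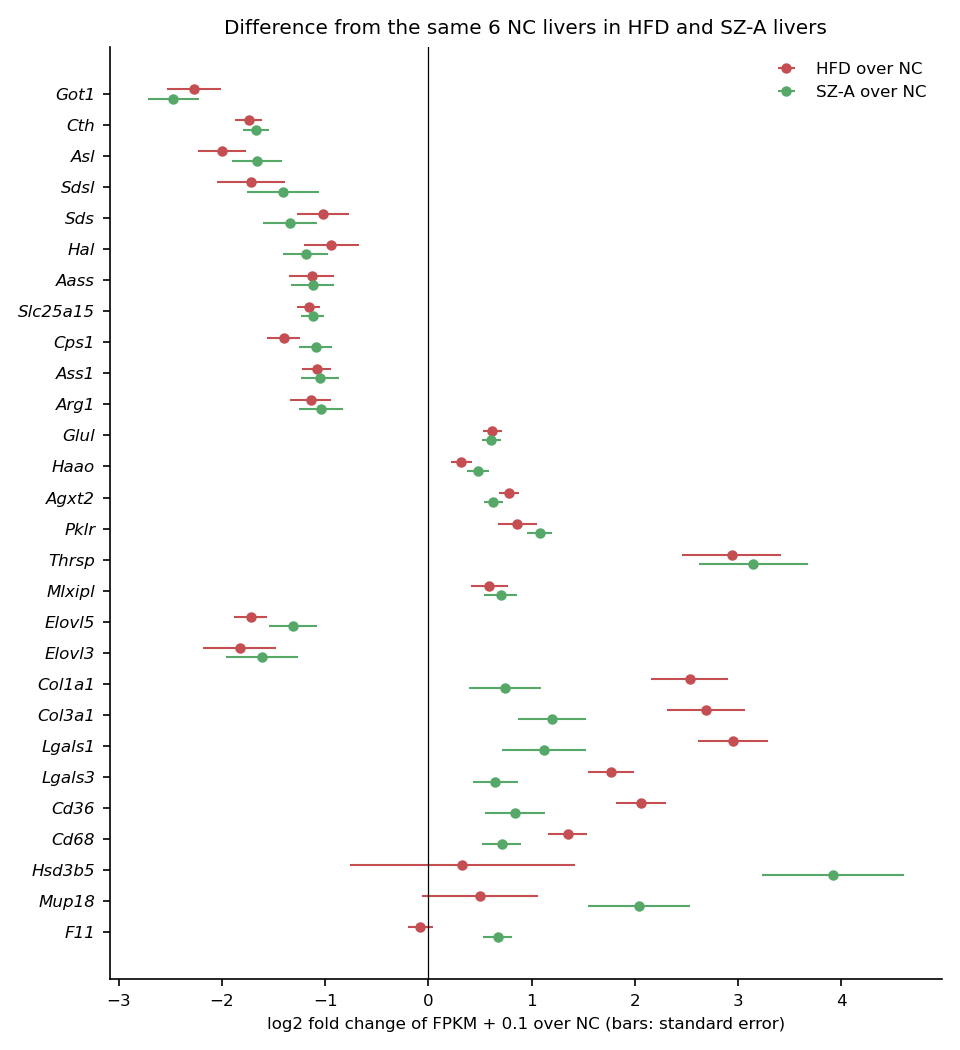
Points give the log2 fold change of 28 genes over the same 6 NC livers in HFD and in SZ-A livers, with standard errors. Amino acid and lipogenic genes have near values in both groups, the collagens, galectins, Cd36 and Cd68 lie nearer to 0 in SZ-A livers, and Hsd3b5 is at 3.92 in SZ-A and 0.33 in HFD livers.

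No gene was called by limma in the same direction against both NC and HFD. In 4 genes SZ-A mice were called against both groups in opposite directions, and lay between them. These were Cd68, Psmd9, Rcan2 and Gm45044. Psmd9, a proteasome assembly factor, was 7.76 to 18.6 FPKM (median 11) in NC mice and 6.02 to 8.73 FPKM (median 7.29) in SZ-A mice, against 4.52 to 5.28 FPKM (median 4.88) in HFD mice, which gave -0.70 against NC and 0.53 (adjusted p = 0.038) against HFD. Rcan2, an inhibitor of calcineurin, was 0.8 to 1.68 FPKM (median 1.11) in NC mice and 1.5 to 2.71 FPKM (median 1.62) in SZ-A mice, against 2.89 to 6.12 FPKM (median 3.96) in HFD mice, which gave 0.64 and -1.12 (adjusted p = 0.0368). The long noncoding RNA Gm45044 stood at -0.86 and 1.68 (adjusted p = 0.0451). Among fits without 1 mouse, the call was lost in 9 of 12 fits for Rcan2 (adjusted p up to 0.0916) and 10 of 12 fits for Gm45044 (adjusted p up to 0.0982). The call of Psmd9 was lost without NC4 or without SZ-A1 (adjusted p up to 0.0524). The direct calls against HFD were lost in 8 of 12 fits without 1 mouse for Cd68 (adjusted p up to 0.125), 8 for Psmd9 (0.114), 7 for Rcan2 (0.116) and 9 for Gm45044 (0.132), and all were lost with no filter on low values. Genes called far below NC included the leptin receptor Lepr, at 1.84 to 19.4 FPKM (median 7.34) in NC mice and 0.486 to 2.04 FPKM (median 0.823) in SZ-A mice, against 0.356 to 1.03 FPKM (median 0.763) in HFD mice (log2 fold change -2.70, SE 0.49, adjusted p = 0.00546), and Raet1e, a ligand of the natural killer receptor NKG2D, at 2.32 to 7.12 FPKM (median 3.86) in NC mice and 0.128 to 0.84 FPKM (median 0.399) in SZ-A mice, against 0.66 to 1.62 FPKM (median 0.767) in HFD mice (log2 fold change -3.0, SE 0.37, adjusted p = 0.000947). Between SZ-A and HFD the log2 fold change was 0.37 (adjusted p = 0.638) for Lepr and -1.08 (adjusted p = 0.209) for Raet1e. Raet1e has close paralogs.

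Of 29 ER chaperone and unfolded protein response genes 2 were higher and 1 lower (10.3% called, near the 9.6% over all genes, median 0.49). Chac1, which degrades glutathione and is induced by ATF4, was 0.175 to 0.573 FPKM (median 0.375) in NC mice and 1.02 to 16.5 FPKM (median 4.45) in SZ-A mice, against 2.46 to 6.27 FPKM (median 4.34) in HFD mice (log2 fold change 3.12, SE 0.54, adjusted p = 0.00406), and the ER degradation factor Edem1 was higher (log2 fold change 0.43, adjusted p = 0.0236). Chac1 thus rose while Asns, also a target of ATF4, fell. Of 28 antioxidant genes 3 were higher, heme oxygenase Hmox1, the extracellular superoxide dismutase Sod3 and glutathione peroxidase Gpx1 (log2 fold change 0.87 and adjusted p = 0.0412 for Hmox1, 0.56 and 0.00957 for Sod3 and 0.49 and 0.0114 for Gpx1), with none lower. The called share of antioxidant genes, 10.7%, was near the 9.6% over all genes. The number of higher antioxidant genes was 5 without NC5. Of 35 lysosomal genes 7 were higher and 3 lower (28.6% called, against 9.6% over all genes, median 0.11), and the lower ones included Gusb, which cuts sugars, and the protease Ctsl (log2 fold change -0.58 and adjusted p = 0.0491 for Ctsl and -0.54 and 0.0336 for Gusb). Higher lysosomal genes numbered 2 without NC1 or NC3 or SZ-A6, 3 without SZ-A3 and 4 without NC2 or NC4 or SZ-A2, and lower ones 1 without NC1 or NC4 or SZ-A1 or SZ-A3 or SZ-A4 or SZ-A6. Of 27 immediate early and p53 target genes Gadd45a was higher and Gadd45b lower (log2 fold change 2.04 and adjusted p = 0.00188 for Gadd45a and -1.18 and 0.041 for Gadd45b), and of 11 cell cycle genes Ccnd1 was higher and Ccnd3 lower (log2 fold change 0.71 and adjusted p = 0.0181 for Ccnd1 and -0.67 and 0.00149 for Ccnd3). The called share was 7.41% for immediate early and p53 target genes and 18.2% for cell cycle genes, against 9.6% over all genes. In HFD mice there were 2 higher and 1 lower ER genes, 6 higher and 2 lower antioxidant genes, 14 higher and 3 lower lysosomal genes, 8 higher and 2 lower immediate early and p53 target genes and 2 higher and 1 lower cell cycle genes. With 1 mouse left out at a time, the call was lost in 9 of 12 fits for Hmox1 (adjusted p up to 0.0916), 9 of 12 fits for Ctsl (adjusted p up to 0.103), 7 of 12 fits for Gusb (adjusted p up to 0.0732) and 8 of 12 fits for Gadd45b (adjusted p up to 0.0816). The call of Edem1 was lost without SZ-A6 (adjusted p up to 0.0501).

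None of 79 cytosolic ribosomal protein genes was called by limma between SZ-A and NC (median -0.09, 2 at an unadjusted p under 0.05, 0 called by voom), and 35 were lower in HFD mice (median -0.32). Between SZ-A and HFD directly, 0 were called by limma or voom, the median was 0.24, and 52 had an unadjusted p under 0.05. The largest difference was that of Rps27a (log2 fold change -0.36, adjusted p = 0.542). Ribosomal genes have many pseudogene copies that could take part of their fragments. Of 78 nuclear genes of the respiratory chain 1 was lower, Sdhd (log2 fold change -0.37, adjusted p = 0.0309), with a median of -0.02, and 4 were lower in HFD mice. Of 13 genes of the mitochondrial genome 3 were lower, mt-Nd1, mt-Nd5 and mt-Cytb (log2 fold change -0.48 and adjusted p = 0.0399 for mt-Nd1, -0.42 and 0.0464 for mt-Nd5 and -0.35 and 0.0432 for mt-Cytb), with a median of -0.35 and 5 lower in HFD mice. The called share was 1.28% for the nuclear respiratory chain and 23.1% for the mitochondrial genome, against 9.6% over all genes. All genes on the mitochondrial chromosome, those outside the list included, took 3.91% to 4.87% of the fragments in NC and 3.34% to 3.87% in SZ-A mice. The number of lower mitochondrial genes was 0 without NC1 or NC2 or NC4 or NC5 or SZ-A2 or SZ-A3 or SZ-A6 and 1 without SZ-A1 or SZ-A4 or SZ-A5. When single mice were left out, the call was lost in 5 of 12 fits for Sdhd (adjusted p up to 0.0732).

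Markers of other cell types were summed per mouse, and their part in the results above was not tested. Over all genes tested 9.6% were called between SZ-A and NC, 5.31% as higher and 4.3% as lower. Monocyte and recruited macrophage markers summed to 48.2 to 88.4 FPKM in NC, 69.2 to 127 in SZ-A and 121 to 174 in HFD mice, with 2 of the 4 tested called higher (Cd68 and Fcgr1). Kupffer cell markers summed to 199 to 340 FPKM in NC, 305 to 401 in SZ-A and 279 to 512 in HFD mice, with 1 of 12 higher (C1qb), and stellate cell markers to 66.1 to 81.5 FPKM in NC, 69.9 to 96.5 in SZ-A and 74 to 149 in HFD mice, with 2 of 11 higher (Col3a1 and Lum). Neutrophil markers summed to 1.6 to 7.35 FPKM in NC, 4.89 to 23.4 in SZ-A and 6.35 to 21.1 in HFD mice, and S100a8 and S100a9, calcium-binding proteins of neutrophils and monocytes, were the 2 called of 3 tested (log2 fold change 1.69 and adjusted p = 0.0182 for S100a8 and 1.79 and 0.0362 for S100a9). Adipocyte markers, 41.2 to 122 FPKM in NC, 13.6 to 66.7 in SZ-A and 61.3 to 174 in HFD mice, had 1 called of 5 tested, Cidec as lower. Cidec alone held 29.5 to 115 FPKM in NC and 5.29 to 43.9 FPKM in SZ-A mice, a large part of this sum. Of the 5 tested, 4 had positive fold changes against NC (median log2 fold change 0.41), so the lower sum does not stand for the list. The markers of sinusoidal endothelium (0 of 12 called), B and plasma cells (0 of 4) and red blood cells (0 of 5) overlapped between NC and SZ-A mice. Of cholangiocyte markers Sox9 was lower (log2 fold change -0.62, adjusted p = 0.0226), 1 of 3. No T and NK cell marker passed the filter, at sums of at most 5.92 FPKM. Pancreas acinar markers summed to 3.23 to 5.17 FPKM in NC, 9.3 to 10.8 in SZ-A and 4.53 to 9.28 in HFD mice, of which Cela1 alone passed the filter, so the difference in this sum is that of Cela1. Hepatocyte markers had 1 of 15 called, Cps1 as lower. The called share was 6.67% for hepatocyte and 8.33% for Kupffer cell markers, both under the 9.6% over all genes. Leaving out each mouse in turn, the call was lost in 7 of 12 fits for S100a9 (adjusted p up to 0.079). The call of Sox9 was lost without NC3 or without NC4 (adjusted p up to 0.0519).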

How the data were processed

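Liver RNA of 18 mice (6 each of NC, HFD and SZ-A, from separate animals per the study's methods) was sequenced from libraries of the NEBNext Ultra kit. Per the submitters' processing notes, reads were mapped with HISAT2 2.0.5 to mm10 and counted with featureCounts 1.5.0-p3. The strand setting of the counting is not given in the sources used here. The authors deposited FPKM per gene and mouse, so limma was used, since the DESeq2 test of the study needs counts. FPKM times gene length gave whole fragments (tolerance 0.05) for 100% of the values, at 17163191 to 20493907 fragments per mouse.

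Values of genes whose FPKM averaged 1 or more across all 18 mice were compared as log2(FPKM + 0.1) with limma 3.58.1 (lmFit, eBayes with trend) in R 4.3.3, with only the 2 groups compared in each fit, and Benjamini-Hochberg adjustment over all genes. Calls required an adjusted p under 0.05 together with a change of over 1.2-fold. Tables and figures were made with Python 3.11.15. The fit was tested on simulated data. Genes were named by a rule: the 12 called genes of smallest adjusted p in each direction, up to 3 called members per process list by fold change (or the largest if none was called), markers of cell types whose sum differed, and the genes measured by RT-PCR in the study. Genes named outside this rule were chosen after their values were seen. They are Aass, Agxt2, Arg1, Ass1, Bhlhe40, Bst2, Clock, Col1a2, Cps1, Cry2, Cyp1a2, Elovl5, F11, Gbp3, Glul, Gm45044, Gys2, Haao, Hal, Hsd17b13, Ifih1, Ifitm3, Irgm1, Isg15, Itih4, Lepr, Mlxipl, Mmp2, Oas1a, Otc, Pck1, Per2, Pnpla2, Raet1e, Rcan2, Rtp4, S100a8, S100a9, Saa4, Sds, Sdsl, Sox9 and Usp18, and the called list members named without values. Some items covered by the rule are not reported here. The comparison, the lists and the members were chosen with earlier results of these data known. Alternatives covered the pseudocount, the filter, the scaling, the fit, voom on whole fragments, the thresholds, the replicate block and each mouse left out.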

Additional observations from a re-analysis of the deposited data

Results flagged for a closer look

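In 41 of 312 pairs of a named gene and a group, 1 mouse lay far from the other 5 (its gap to the nearest mouse, over the group's range, exceeded Dixon's critical value). Chance flags about 1 in 20 groups, and genes of 1 mouse are not independent of each other. NC5 accounted for most of these in NC mice. It was highest of its group for Aass (489 FPKM, nearest other 229), Asl (622 FPKM, nearest other 336), Dgat1 (15.1 FPKM, nearest other 10.6), Hamp (7251 FPKM, nearest other 2799), Insig2 (491 FPKM, nearest other 206), Pnpla2 (108 FPKM, nearest other 63.7), Sdsl (71.6 FPKM, nearest other 26) and Thrsp (7.31 FPKM, nearest other 3.87), and lowest for Cd68 (2.8 FPKM, nearest other 5.89), Cpt1a (182 FPKM, nearest other 237), Ppara (13.1 FPKM, nearest other 48.4), Saa4 (18 FPKM, nearest other 62.2) and Slco1b2 (128 FPKM, nearest other 228). The mouse SZ-A5 accounted for most in SZ-A mice. It was highest for Ccl2 (4.12 FPKM, nearest other 1.11), Chac1 (16.5 FPKM, nearest other 5.02), Ctsl (130 FPKM, nearest other 87.4), Cxcl1 (22.3 FPKM, nearest other 7.23), Lum (7.31 FPKM, nearest other 4.67), Mup18 (53.6 FPKM, nearest other 17.1), Pdk4 (7.32 FPKM, nearest other 2.9), S100a8 (6.1 FPKM, nearest other 2.78) and Sdsl (14.1 FPKM, nearest other 8.55), and lowest for Gm8941 (5.35 FPKM, nearest other 16) and Haao (263 FPKM, nearest other 341).

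Among other NC mice, NC1 was highest for Cyp2b9 (0.879 FPKM, nearest other 0.311), Lcn2 (5.92 FPKM, nearest other 2.09), Mmp2 (1.1 FPKM, nearest other 0.681), S100a9 (3.59 FPKM, nearest other 1.3) and Vim (6.5 FPKM, nearest other 5.06). NC4 was highest for Socs3 (3.42 FPKM, nearest other 2.29) and Wee1 (2.12 FPKM, nearest other 1.11), and NC6 for Hsd3b5 (24.7 FPKM, nearest other 8.05). Among other SZ-A mice, SZ-A1 was highest for Aacs (23.9 FPKM, nearest other 10.7) and lowest for AU022252 (5.26 FPKM, nearest other 6.02). SZ-A2 was highest for Cd36 (78.1 FPKM, nearest other 43.8) and Gm34654 (0.377 FPKM, nearest other 0.103), and SZ-A4 for Adipor1 (24.1 FPKM, nearest other 22.3), Edem1 (35.9 FPKM, nearest other 31.1) and Hsd17b7 (18.3 FPKM, nearest other 11). SZ-A6 was lowest for Mmp2 (0.736 FPKM, nearest other 0.991) and Pnpla2 (29 FPKM, nearest other 31.7). Without NC5 and SZ-A5, an alternative chosen after seeing the data, 6 of the 138 called genes named here lost their call. The causes of these values were not tested.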

How the results depend on the processing

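The 981 genes called between SZ-A and NC became 564 (307 higher, 257 lower) with no filter on low values, 1682 (943 higher, 739 lower) with sample weights, 205 (126 higher, 79 lower) with a fold change over 2, and 2064 (1185 higher, 879 lower) with an unadjusted p. Leaving out single mice gave 601 (SZ-A3) to 1179 (SZ-A5) calls, 332 to 667 higher and 269 to 559 lower, and without SZ-A6 there were 629 (346 higher, 283 lower). The other alternatives stayed within 1.5 times the count, among them 936 with a pseudocount of 1, 796 with a common sum, 993 with voom on whole fragments, and 947 without NC6. HFD against NC gave 1271 genes at a mean FPKM of at least 5 and 371 with a fold change over 2. The 15 genes called between SZ-A and HFD became 0 with no filter, 26 at a mean FPKM of at least 5, 216 with a common sum, 35 with all 18 mice in one fit, 233 with sample weights, 28 with voom, 7 with a fold change over 2, 922 with an unadjusted p, and 2 (HFD4 or SZ-A6) to 49 (SZ-A2) with single mice left out. Correlations between same-numbered SZ-A and NC mice were weak, at -0.04 to 0.11, with 3 of 6 closest to their own number. Between same-numbered SZ-A and HFD mice they ran from -0.07 to 0.29. Whether replicate numbers pair the mice is not settled by these values. With the replicate block there were 922 (534 higher, 388 lower) calls between SZ-A and NC and 0 between SZ-A and HFD. Over 24 alternatives, the 138 called genes named here gave 3279 pairs of gene and alternative, of which 405 lost the call and 0 reversed. Most were lost with no filter (62 genes), without SZ-A6 (38) and without SZ-A3 (36). Medians of 11 lists changed sign under at least 1 alternative. Causes of these shifts were not tested. Genes under a mean FPKM of 1 were not tested, and levels near 0.1 FPKM are limited by the pseudocount.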
